A study of Mus musculus with 44 samples.

Results

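The integrin and laminin genes of a culture that held blood progenitors on a layer of stromal feeder cells were followed over 16 time points. The members are the genes of the deposited table whose symbols are those of integrin chains (Itga or Itgb) or laminin chains (Lama, Lamb or Lamc with a single digit), leaving out symbols that contain "bp". They are 39 of 23234 genes. By their known expression, 10 are chains mainly of blood cells, 11 are chains mainly of stromal, muscle or epithelial cells, 6 are used by both, and 11 are laminin chains. The last, Itgbl1, resembles an integrin β chain but is not a receptor chain.

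Integrins are receptors made of an α and a β chain that hold cells to matrix or to other cells. In blood cells the β2 chain (Itgb2) pairs with αL (Itgal) and αM (Itgam), and α4 (Itga4) pairs with β1 (Itgb1) or β7 (Itgb7) and binds VCAM-1 and fibronectin, a contact by which blood progenitors stay on marrow stroma. Stromal cells hold fibronectin mainly through α5β1 (Itga5 with Itgb1) and use αv (Itgav) with several β chains. Laminins are secreted trimers of an α, a β and a γ chain that form the base of basement membranes and are bound by integrins such as α3β1 and α6β1.

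The libraries were poly(A) RNA of C57BL/6J mouse fetal liver iLS cells, blood progenitors kept multipotent by an inducible Id3-ERT2 protein, grown on the stromal feeder line TSt-4. In the first medium IL-7 was at 20 ng/mL, the cytokines SCF and Flt-3L were each at 10 ng/mL, and the drug 4-OHT was at 40 nM. B cell differentiation was then induced, again on TSt-4 cells, with 5 ng/mL IL-7 and without 4-OHT, and the labels name neither SCF nor Flt-3L for this second medium. The change was followed at 14 times with 3 libraries each (0, 0.5, 1, 2, 4, 6, 8, 10, 12, 24, 48, 72, 96 and 144 h), while 120 h and 168 h have 1 library each. All groups share the strain, the Id3-ERT2 protein and the feeder line, and no culture kept in the first medium is among the samples. No label says that the feeder cells were taken out, so each library may be a mixture whose shares differ between times. The labels do not say whether the 3 libraries of a time came from separate cultures, and the p-values measure only the spread between these libraries.

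All values are FPKM, fragments normalised for transcript length and library size, so that levels of different genes can be set side by side. The summed FPKM of a library lay in the range 516025 to 701705, with 11520 to 12316 genes at 1 FPKM or more. Depth is unknown, and the worth of a single fragment, read from the spacing of low values, spanned 4.06-fold between libraries. The mixture was followed with 22 genes of blood cells in general (such as Ptprc and Coro1a) and 25 genes of stromal cells (such as Col1a1 and Sparc). All 22 blood-cell genes and 23 of the 25 stromal genes had a median of at least 1 FPKM, while Dcn and Lum were listed at 0 in 43 and 44 of the 44 libraries. The summed blood-cell genes stood at 3024 ± 447 (SD, n = 3) FPKM at 0 h, 985 ± 42.5 FPKM at 6 h and 737 ± 280.3 FPKM at 24 h. They stood at 889.7 ± 365 FPKM at 48 h and 2406 ± 162 FPKM at 144 h. The summed stromal genes stood at 1189.6 ± 803 FPKM at 0 h (595 to 2103), 8887 ± 444 FPKM at 6 h and 7172 ± 765 FPKM at 24 h. Later they stood at 7243 ± 1570.1 FPKM at 48 h and 1956 ± 422 FPKM at 144 h. Both sums move with the results below, and in such bulk libraries fewer cells of a type and less RNA per cell cannot be told apart. The main results are therefore also given relative to the sum of the cell type named. Of other cell types, 1 of 8 megakaryocyte, 2 of 8 endothelial, 0 of 7 epithelial, 1 of 7 NK and T cell and 6 of 11 myeloid genes had a median of at least 1 FPKM. Gp6 of platelets and Emcn and Tie1 of endothelium were listed at 0 in all 44 libraries. On the same lists, Pecam1 and Egfl7 of endothelium were above 0 in every library (medians 10.9 and 7.83 FPKM), and Ppbp of platelets was at 0 in 5. The summed endothelial genes stood at 55.7 ± 10.1 FPKM at 0 h, 8.43 ± 2.81 FPKM at 6 h and 52.9 ± 25.8 FPKM at 144 h.

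Itga4 and Itgb7 (α4β7, a receptor of blood cells) and Itga5 and Itgb1 (α5β1, the main fibronectin receptor of stromal cells) are the genes on which the results turn most. The 250 bases before their starts are shown so that the promoters of partners whose ratio moved can be compared. The sequences are from RefSeq on GRCm38.p6, each on the strand of its gene: Itga4 at chr2:79255176-79255425 (+), Itgb7 at chr15:102231936-102232185 (-), Itga5 at chr15:103366792-103367041 (-) and Itgb1 at chr8:128685404-128685653 (+). Capitals mark matches, on either strand, to the E-box CAGNTG (bound by the E proteins that Id3 keeps from DNA), the PU-box GAGGAAGT (PU.1), GGAATG (TEAD factors) or TGANTCA (AP-1).
Itga4: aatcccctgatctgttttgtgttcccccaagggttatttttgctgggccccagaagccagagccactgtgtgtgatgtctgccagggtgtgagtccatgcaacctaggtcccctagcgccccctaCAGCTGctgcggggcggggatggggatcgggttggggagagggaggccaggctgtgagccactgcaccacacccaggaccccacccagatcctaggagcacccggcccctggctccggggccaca
Itgb7: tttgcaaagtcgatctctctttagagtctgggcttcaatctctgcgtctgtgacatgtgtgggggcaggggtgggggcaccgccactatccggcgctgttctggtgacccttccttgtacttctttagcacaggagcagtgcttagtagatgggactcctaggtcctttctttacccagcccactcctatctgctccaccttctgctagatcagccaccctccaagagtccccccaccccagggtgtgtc
Itga5: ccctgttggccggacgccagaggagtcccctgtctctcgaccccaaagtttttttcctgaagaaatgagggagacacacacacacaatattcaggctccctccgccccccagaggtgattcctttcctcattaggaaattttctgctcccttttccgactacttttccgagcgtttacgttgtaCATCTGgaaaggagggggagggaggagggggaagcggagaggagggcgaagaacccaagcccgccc
Itgb1: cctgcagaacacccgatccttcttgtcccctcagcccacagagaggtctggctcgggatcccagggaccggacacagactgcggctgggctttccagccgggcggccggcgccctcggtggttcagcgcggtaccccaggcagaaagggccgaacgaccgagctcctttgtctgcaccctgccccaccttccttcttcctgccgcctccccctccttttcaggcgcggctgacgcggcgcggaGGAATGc
The matches are an E-box in Itga4, 125 to 120 bases before the start, an E-box in Itga5, 66 to 61 bases before it, and GGAATG in Itgb1, 7 to 2 bases before it. The piece shown for Itgb7 has none. The whole RefSeq windows, which run 50 bases past the start, hold 1 E-box in Itga4, 2 E-boxes in Itga5, 1 GGAATG in Itgb1, and 1 E-box and 1 PU-box in Itgb7. Of the 39 members, 25 were found in the RefSeq table with 28 promoters. An E-box was in 20 of these (71.4%) against 51.4% of all 32851 promoters, a PU-box in 5 (17.9%) against 3.2%, GGAATG in 3 (10.7%) against 14.7%, and TGANTCA in 3 (10.7%) against 7.81%. The PU-boxes were in the blood-cell chains Itgb7 and Itgb2l and in the stromal chains Itgav, Itga11 and Itgb6. Of the blood-cell chains, Itgal, Itgb2, Itgae and Itgad had no promoter in the RefSeq table. All of these are matches of letters, and no binding was measured.

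Of the 39 members, 29 had 3 or more values of 1 FPKM or above among the 42 replicated libraries and were tested. The other 10 were low in every library: Itga2, Itga9, Itgad, Itgb8, Lama1, Lama3 and Lamc3 reached at most 0.897 FPKM, and Itga10, Itgb2l and Itgbl1 at most 1.3, 1.62 and 1.14 FPKM. Changes are differences of log2(FPKM + 1) with their SE from a limma model, and a gene is called changed at an adjusted p under 0.05, adjusted by Benjamini-Hochberg over all 13907 genes tested. In the F test over all later times 22 of the 29 were called (6 of 8 blood-cell, 6 of 9 stromal and 4 of 4 shared integrins, and 6 of 8 laminins), where 56% of all genes were.

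On the deposited scale chains of blood cells fell and chains of stromal cells rose from the first hours. Relative to the cells' own marker genes, these directions held at 6 h for 1 blood-cell integrin (Itgal) as a called gene. They held for 0 stromal integrins and 0 laminins. At 6 h 38.1% of all genes were called, 19% higher and 19.2% lower. Of the 10 blood-cell integrins (8 tested) 5 were lower and 0 higher. Of the stromal integrins, 5 of 11 (9 tested) were higher and 0 lower, and of the laminins 6 of 11 (8 tested) were higher and 0 lower. The median change of the tested genes of each list was -1.0, 0.87 and 1.30 (log2), beside -0.055 over all genes. At 0.5 h 3 blood-cell integrins were already lower, and 6 stromal integrins and 6 laminins higher, where 21.6% of all genes were called. At 24 h the counts were 5 lower, 5 higher and 5 higher, where 43.3% of all genes were called, 20.8% higher and 22.5% lower. From 8 h on, replicate 3 belongs to another run of consecutive library codes than at 0 to 6 h. Comparisons of 12 h and 24 h with 0 h therefore cross runs in replicate 3, while replicates 1 and 2 keep their runs up to 24 h.

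These directions follow the marker sums: 21 of the 22 blood-cell genes were lower and all 23 tested stromal genes higher at 6 h. Scaled to the summed blood-cell genes, 2 blood-cell integrins were called higher and 1 lower at 6 h. Scaled to the summed stromal genes, 0 stromal integrins were called higher and 6 lower, and 0 laminins higher and 4 lower. The filter on low values was applied anew to the scaled values, so that 8 blood-cell and 10 stromal integrins were tested on the first scale and 9 and 10 on the second. Such scaling also moves the bulk of the table: 70.5% of all genes were called at 6 h on the first and 86.7% on the second scale. Of these, 98.9% and 0.922% were higher, against 49.7% on the deposited scale. The median of all genes at 6 h moved from -0.055 to 1.18 and -2.78, and values on these scales are to be read against it.

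**Figure D1:**
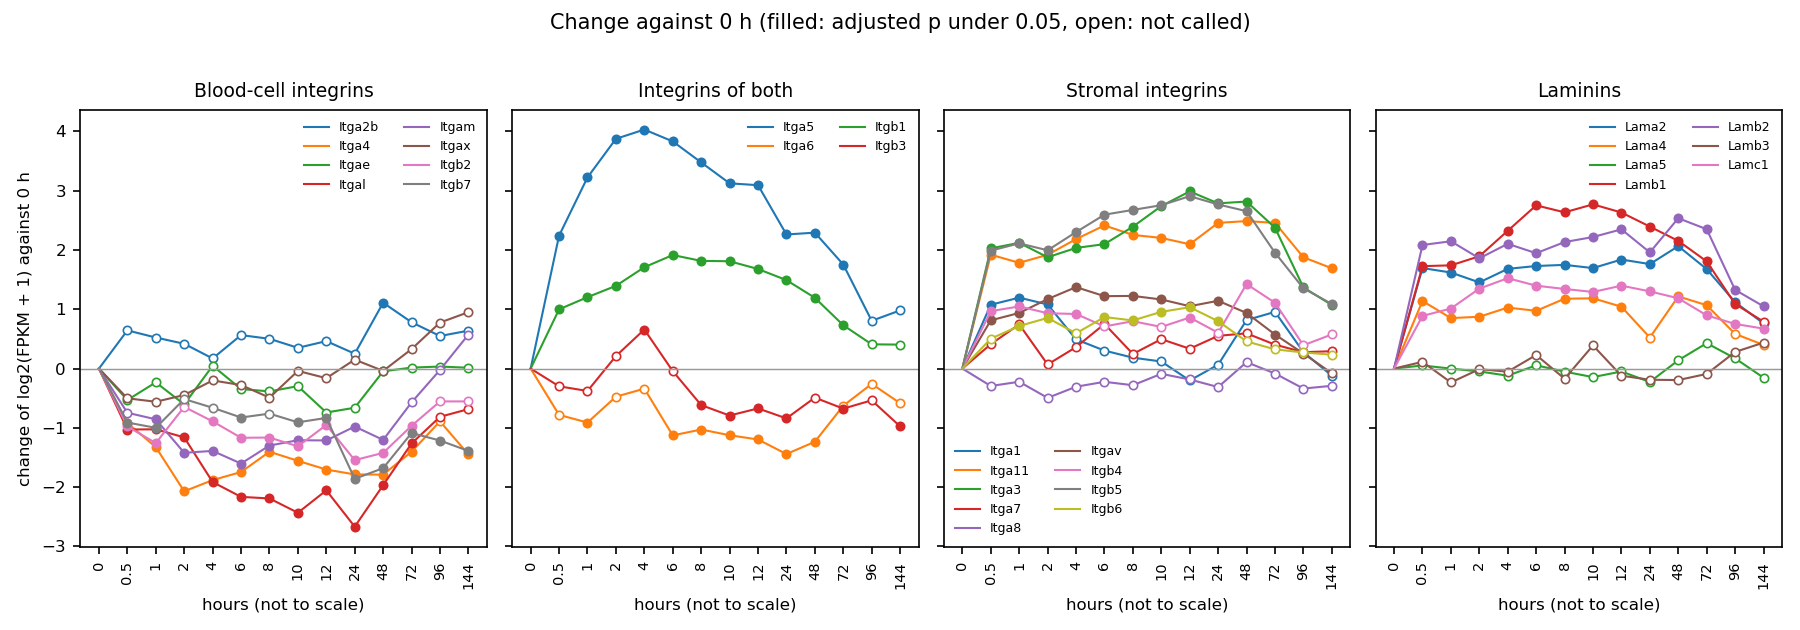
Change of log2(FPKM + 1) against 0 h (vertical axis) at the 13 later replicated times (horizontal axis, not to scale) for tested genes of the 4 lists (1 laminin not drawn), on the deposited scale, with filled points for called changes. At 6 h 5 blood-cell integrins lie below 0 and 5 stromal integrins and 5 of the laminins drawn above it as filled points, a direction that held for 0 stromal integrins and 0 laminins as called genes when scaled to the stromal genes.

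Itga4, the α4 chain, was the highest of the 39 genes at 0 h. Its libraries held 218, 243 and 178 FPKM at 0 h and 51.3, 51.3 and 46.2 FPKM at 2 h. The 2 h libraries lie together and far below those of 0 h. Itga4 changed by -2.07 (SE 0.41, adjusted p = 0.00021) at 2 h, where 35% of all genes were called. It held 86.1, 65.2 and 43 FPKM at 6 h and 91.7, 47 and 51.4 FPKM at 24 h, again without overlap with 0 h. The changes were -1.74 (SE 0.41, adjusted p = 0.0011) and -1.79 (SE 0.41, adjusted p = 0.00071). At 96 h the libraries spread from 75 to 203 FPKM. At 144 h they held 91.5, 58.8 and 84 FPKM, all below each 0 h library, and the single libraries of 120 h and 168 h held 80.5 and 68.2 FPKM.

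Itgb7, the β7 partner of α4, was called lower at 6 h and at 24 h. Its libraries held 68.4, 91.3 and 70.4 FPKM at 0 h, 38.2, 47 and 42.8 FPKM at 6 h and 30.7, 28.5 and 9.25 FPKM at 24 h. Each of these groups lies below the one before without overlap, and 24 h replicate 3 is far below its group. The change was -0.83 (SE 0.33, adjusted p = 0.046) at 6 h and -1.86 (SE 0.33, adjusted p = 2.7e-05) at 24 h. The 6 h call was lost without any single one of its 6 libraries (log2 change between -0.90 and -0.69), with a pseudocount of 0.1 (adjusted p = 0.051) and with no filter on low values (adjusted p = 0.063). At 144 h the libraries held 39.2, 25.5 and 22.9 FPKM, and the single libraries held 25.3 FPKM at 120 h and 17.1 FPKM at 168 h.

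The ratio of Itga4 to Itgb7 FPKM within a library is free of any scaling of libraries. It was 2.79 ± 0.347 (SD, n = 3) at 0 h (2.52 to 3.18) and 0.959 ± 0.263 at 2 h (0.721 to 1.24), ranges that do not overlap. With 3 libraries on each side, the smallest p of an exact permutation test is 0.1, and no test of ratios is given. The ratio was 3.4 ± 1.99 at 24 h and 2.77 ± 0.776 at 144 h, overlapping that of 0 h. At 2 h the α4 transcript was thus low for the level of its β7 partner.

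Relative to the blood-cell genes, Itga4 was lower at 2 h and Itgb7 higher. Itga4 stood at 70.4 ± 1.58 FPKM per 1000 summed FPKM of blood-cell genes at 0 h, 36.9 ± 7.64 at 2 h, then 90.3 ± 29.6 at 24 h and lastly 32.5 ± 7.23 at 144 h. Itgb7 stood at 25.4 ± 2.46 at 0 h, 47.2 ± 10.8 at 12 h, 12 ± 2.85 at 144 h and 6.79 in the single library of 168 h. Itga4 thus dipped at 2 h and was low late, while Itgb7 was high at 12 h and low late, in each case outside the 0 h range. In limma on values scaled this way, Itga4 changed by -0.94 (SE 0.32, adjusted p = 0.015) at 2 h and Itgb7 by 0.60 (SE 0.25, adjusted p = 0.048), where 47.2% of all genes were called. At 6 h Itga4 was not called, with -0.15 (SE 0.32, adjusted p = 0.69), while Itgb7 was higher, with 0.75 (SE 0.25, adjusted p = 0.0086). The median change of all genes on that scale was 0.73 at 2 h and 1.18 at 6 h, above that of Itgb7 at both times.

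At 12 h the direction of Itgb7 depended on the scale. It was -0.83 (SE 0.33, adjusted p = 0.041) on the deposited scale, where 41.9% of all genes were called. It was 0.85 (SE 0.25, adjusted p = 0.0030) scaled to the blood-cell genes, where 73.6% were. The median change of all genes on that scale was 1.30, above that of Itgb7. The deposited 12 h call was lost without any of 5 of its 6 libraries (all but 12 h replicate 2). It was also lost with no filter on low values (adjusted p = 0.056). At 24 h neither chain was called on the blood-cell scale, with 0.30 (SE 0.32, adjusted p = 0.39) for Itga4 and 0.18 (SE 0.25, adjusted p = 0.52) for Itgb7, where 79.5% of all genes were. The median change of all genes there was 1.63.

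**Figure D2:**
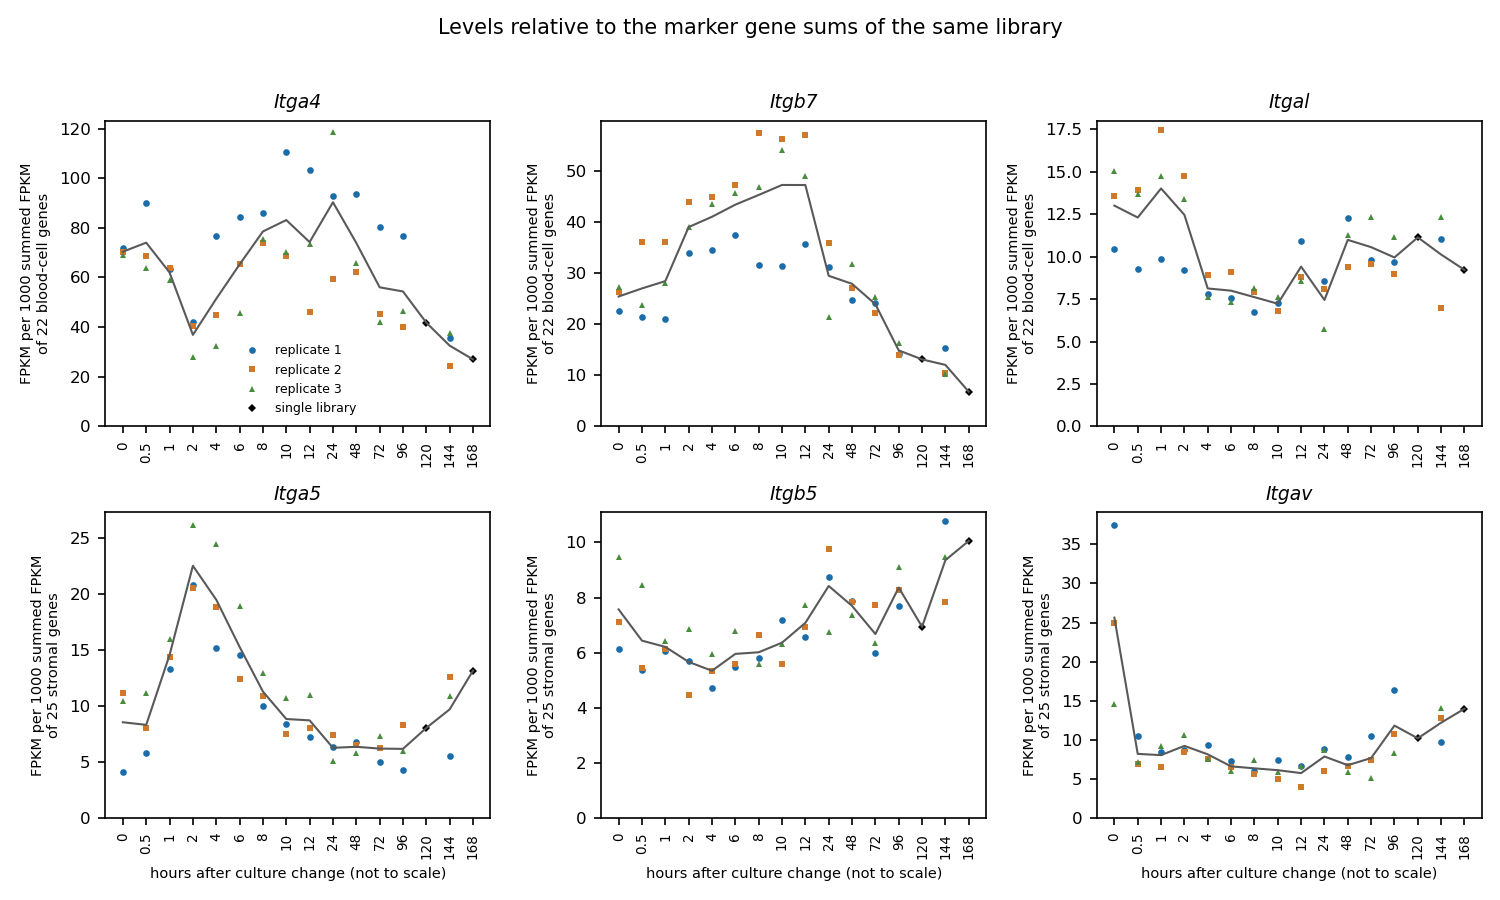
FPKM of Itga4, Itgb7 and Itgal per 1000 summed FPKM of 22 blood-cell genes (upper row) and of Itga5, Itgb5 and Itgav per 1000 summed FPKM of 25 stromal genes (lower row), by hour (not to scale), with a point per library, a line at the mean and diamonds for single libraries. The mean of Itga4 dips to 36.9 at 2 h, that of Itgb7 reaches 47.2 at 12 h, and that of Itga5 peaks at 22.6 at 2 h. The line of Itgb5 stays between 5.34 and 10.1, the latter in the single library of 168 h, and some library points lie outside this range.

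Itgal, the αL chain of LFA-1 on leukocytes, fell most among the blood-cell chains at 6 h and 24 h. Its libraries held 31.5, 47 and 38.8 FPKM at 0 h, 7.71, 9.07 and 6.87 FPKM at 6 h and 8.43, 6.39 and 2.48 FPKM at 24 h. They held 28.3, 16.9 and 27.6 FPKM at 144 h. The 6 h and 24 h libraries all lie below those of 0 h, and all 144 h libraries lie above those of 24 h. The change was -2.16 (SE 0.30, adjusted p = 1.1e-06) at 6 h and -2.67 (SE 0.30, adjusted p = 4.1e-08) at 24 h. Relative to the blood-cell genes it was also called lower, with -0.62 (SE 0.23, adjusted p = 0.018) at 4 h, where 62.9% of all genes were called. The values on that scale were -0.64 (SE 0.23, adjusted p = 0.012) at 6 h and -0.75 (SE 0.23, adjusted p = 0.0033) at 24 h.

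Itgb2, the β2 chain shared by αL and αM, held 51.1, 42 and 29.3 FPKM at 0 h, 22.4, 18.8 and 11.9 FPKM at 6 h and 17.7, 15.1 and 8.07 FPKM at 24 h. It held 42.5, 20 and 22.5 FPKM at 144 h. The 6 h and 24 h libraries lie below those of 0 h without overlap, while those of 144 h overlap them. The change was -1.17 (SE 0.34, adjusted p = 0.0066) at 6 h and -1.54 (SE 0.34, adjusted p = 0.00041) at 24 h on the deposited scale. It had the other sign scaled to the blood-cell genes, with 0.38 (SE 0.25, adjusted p = 0.17) and 0.46 (SE 0.25, adjusted p = 0.084). Without 6 h replicate 3 the 6 h change on the deposited scale was not called (-0.92, adjusted p = 0.054), and 3 blood-cell integrins were called in place of 5. The ratio of Itgal to Itgb2 was 1.02 ± 0.363 at 0 h (0.617 to 1.32) and 0.454 ± 0.0509 at 4 h (0.399 to 0.499), without overlap, and 0.912 ± 0.286 at 144 h.

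Itgam, the αM chain of myeloid cells, held 5.66, 11.2 and 6.95 FPKM at 0 h, 2.16, 1.86 and 1.54 FPKM at 6 h and 3.21, 5.03 and 2.32 FPKM at 24 h. It held 2.97, 2.78 and 2.51 FPKM at 48 h and 16.1, 8.6 and 11.9 FPKM at 144 h. The libraries of 6 h and 24 h lie below those of 0 h, and those of 144 h above those of 48 h. The change was -1.6 (SE 0.32, adjusted p = 0.00016) at 6 h and -0.98 (SE 0.32, adjusted p = 0.014) at 24 h. The 24 h call was lost without 0 h replicate 2 (-0.73, adjusted p = 0.10) or 24 h replicate 3 (-0.78, adjusted p = 0.086). Scaled to the blood-cell genes the sign was the other, 0.75 (SE 0.31, adjusted p = 0.025). Itgax, the αX chain of myeloid and dendritic cells, held 0.829, 1.54 and 1.46 FPKM at 0 h, 0.211, 1.39 and 1.21 FPKM at 6 h and 4.56, 3.02 and 2.69 FPKM at 144 h. It was not called at 6 h, -0.28 (SE 0.35, adjusted p = 0.58). The summed myeloid genes were 192 ± 24 FPKM at 0 h, 113 ± 21.8 FPKM at 6 h and 159 ± 164 FPKM at 144 h (45.1 to 348). Of these genes 6 of 11 had a median of at least 1 FPKM, and their part in Itgam and Itgax was not tested.

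Itga2b, the αIIb chain of megakaryocytes and early progenitors, held 1.36, 1.59 and 1.01 FPKM at 0 h, 3.49, 3.28 and 1.07 FPKM at 6 h and 2.72, 1.69 and 1.07 FPKM at 24 h. At the end it held 2.67, 1.95 and 3.3 FPKM at 144 h. The 6 h and 24 h libraries overlap those of 0 h, and the 144 h libraries lie above them. It was not called at 6 h, 0.56 (SE 0.36, adjusted p = 0.23), 24 h, 0.25 (SE 0.36, adjusted p = 0.62), or 144 h, 0.64 (SE 0.36, adjusted p = 0.32). It was called higher at 48 h, 1.11 (SE 0.36, adjusted p = 0.016), the only blood-cell chain so called there, where 5 others were lower and 38.4% of all genes were called. In the F test over all later times it was not called (adjusted p = 0.46). Itgae, the αE chain that pairs with β7, differed more by replicate number than by time. Replicate 1 was the highest of the 3 libraries at all 14 replicated times, with 1.62 to 6.04 FPKM against 0.191 to 1.67 FPKM in replicates 2 and 3. It was not called at 6 h, -0.35 (SE 0.63, adjusted p = 0.71), 24 h, -0.66 (SE 0.63, adjusted p = 0.43), or 144 h, 0.01 (SE 0.63, adjusted p = 1). With the replicate number as a block it was called lower at 24 h, -0.66 (SE 0.24, adjusted p = 0.023), and not at 6 h, -0.35 (SE 0.24, adjusted p = 0.26), or 144 h, 0.01 (SE 0.24, adjusted p = 0.99). Scaled to the blood-cell genes without the block its 24 h change was 0.22 (SE 0.56, adjusted p = 0.74). Of the 13907 genes tested, 63 were likewise highest in replicate 1 at all 14 times, and 0 in replicate 2 or in replicate 3.

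**Figure D3:**
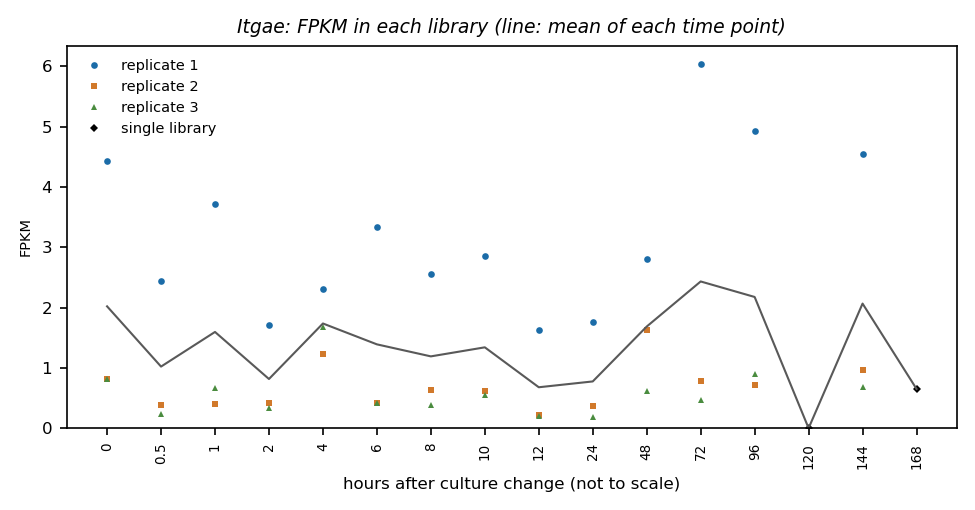
FPKM of Itgae in each library (vertical axis) by hour after the culture change (horizontal axis, not to scale), with a symbol for each replicate number and diamonds for the single libraries. Replicate 1 is highest at all 14 replicated times, between 1.62 and 6.04 FPKM.

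Itga5, the α5 chain, had the greatest change of the 29 tested members at 6 h. Its libraries held 2.46, 9.71 and 21.9 FPKM at 0 h, 30.5, 47.3 and 58.2 FPKM at 0.5 h and 80.2, 97.9 and 85.5 FPKM at 1 h. They held 118, 157 and 197 FPKM at 4 h and 129, 116 and 161 FPKM at 6 h. At every replicated time from 0.5 to 48 h its libraries lie above all 0 h libraries, which themselves spread widely with replicate 3 highest, as in the stromal sum. The change was 2.24 (SE 0.41, adjusted p = 0.00013) at 0.5 h and 3.22 (SE 0.41, adjusted p = 5.3e-07) at 1 h, where 32.1% of all genes were called. At 4 h it was 4.03 (SE 0.41, adjusted p = 5.2e-09), where 35% were called. It was 3.83 (SE 0.41, adjusted p = 1.2e-08) at 6 h and 2.26 (SE 0.41, adjusted p = 4.4e-05) at 24 h. The mean then came down from 157 ± 39.2 FPKM at 4 h to 45.3 ± 11.5 at 24 h and 18.5 ± 6.64 at 144 h, where the libraries (11.8, 18.7 and 25 FPKM) overlap those of 0 h.

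Itga5 also rose relative to the stromal genes at 1 to 6 h. It stood at 8.57 ± 3.86 FPKM per 1000 summed FPKM of stromal genes at 0 h, 22.6 ± 3.18 FPKM at 2 h and 15.3 ± 3.31 at 6 h. It came to 6.29 ± 1.15 at 24 h and 9.72 ± 3.67 at 144 h. Scaled to the stromal genes it changed by 0.87 (SE 0.31, adjusted p = 0.011) at 1 h and 1.49 (SE 0.31, adjusted p = 5.2e-05) at 2 h, and by 1.27 (SE 0.31, adjusted p = 0.00037) at 4 h and 0.92 (SE 0.31, adjusted p = 0.0068) at 6 h. On this scale 83.2%, 84.2%, 86.3% and 86.7% of all genes were called at 1, 2, 4 and 6 h, nearly all of them lower at 6 h. At 24 h it was not called on this scale, with the other sign, -0.33 (SE 0.31, adjusted p = 0.33), where 84.3% of all genes were.

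Itgb1, the β1 chain that pairs with α4, α5, α6 and many others, rose on the deposited scale. Its libraries held 50.4, 57.8 and 78.5 FPKM at 0 h, 224, 230.4 and 247 FPKM at 6 h, 168, 157 and 199.6 FPKM at 24 h and 98.5, 65.8 and 82.9 FPKM at 144 h. Those of 6 h and 24 h lie above 0 h without overlap. The change was 1.92 (SE 0.16, adjusted p = 8.5e-11) at 6 h and 1.49 (SE 0.16, adjusted p = 1.1e-08) at 24 h on the deposited scale. Scaled to the stromal genes it had the other sign, -1.17 (SE 0.26, adjusted p = 9.7e-05) and -1.28 (SE 0.26, adjusted p = 3.0e-05). The ratio of Itga5 to Itgb1 was 0.165 ± 0.115 at 0 h (0.0487 to 0.279), 0.853 ± 0.106 at 2 h (0.773 to 0.974) and 0.235 ± 0.101 at 144 h. The ratio of Itga4 to Itgb1 was 3.6 ± 1.16 at 0 h and 0.281 ± 0.105 at 6 h, so that Itga4 stood above Itgb1 at 0 h and below it at 6 h. Because Itgb1 is a chain of both cell types, both ratios can also move with the mixture, whose part was not tested.

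Itga6, the laminin-binding α6 chain of both progenitors and stroma, went with the blood-cell chains. It held 27.1, 22.6 and 17.4 FPKM at 0 h, 13.1, 6.63 and 9.92 FPKM at 6 h and 11.2, 7.85 and 4.67 FPKM at 24 h. It held 12.2, 15.7 and 15.4 FPKM at 144 h. The 6 h and 24 h libraries lie below those of 0 h. The change was -1.13 (SE 0.31, adjusted p = 0.0044) at 6 h and -1.44 (SE 0.31, adjusted p = 0.00034) at 24 h on the deposited scale. It was positive and not called scaled to the blood-cell genes, 0.37 (SE 0.29, adjusted p = 0.27) and 0.49 (SE 0.29, adjusted p = 0.12). Itgb3, the β3 chain of platelets, myeloid and stromal cells, held 11.8, 10 and 7.41 FPKM at 0 h, 15.6, 16.3 and 15.3 FPKM at 4 h and 10.7, 8.16 and 9.13 FPKM at 6 h. It held 6.16, 4.53 and 4.22 FPKM at 24 h and 4.71, 2.89 and 6.04 FPKM at 144 h. Its 4 h libraries lie above, and its 24 h and 144 h libraries below, those of 0 h. The change was 0.66 (SE 0.25, adjusted p = 0.037) at 4 h, -0.04 (SE 0.25, adjusted p = 0.92) at 6 h and -0.84 (SE 0.25, adjusted p = 0.0064) at 24 h. The 24 h change had the other sign scaled to the blood-cell genes, 0.98 (SE 0.31, adjusted p = 0.0048). The 4 h call was lost without any of 5 of its 6 libraries (all but 0 h replicate 1), with log2 changes between 0.49 and 0.80 over the 6. It was also lost with a pseudocount of 0.1 (adjusted p = 0.052). The 4 h change had the other sign scaled to the stromal genes, -2.15 (SE 0.42, adjusted p = 1.5e-05).

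**Figure D4:**
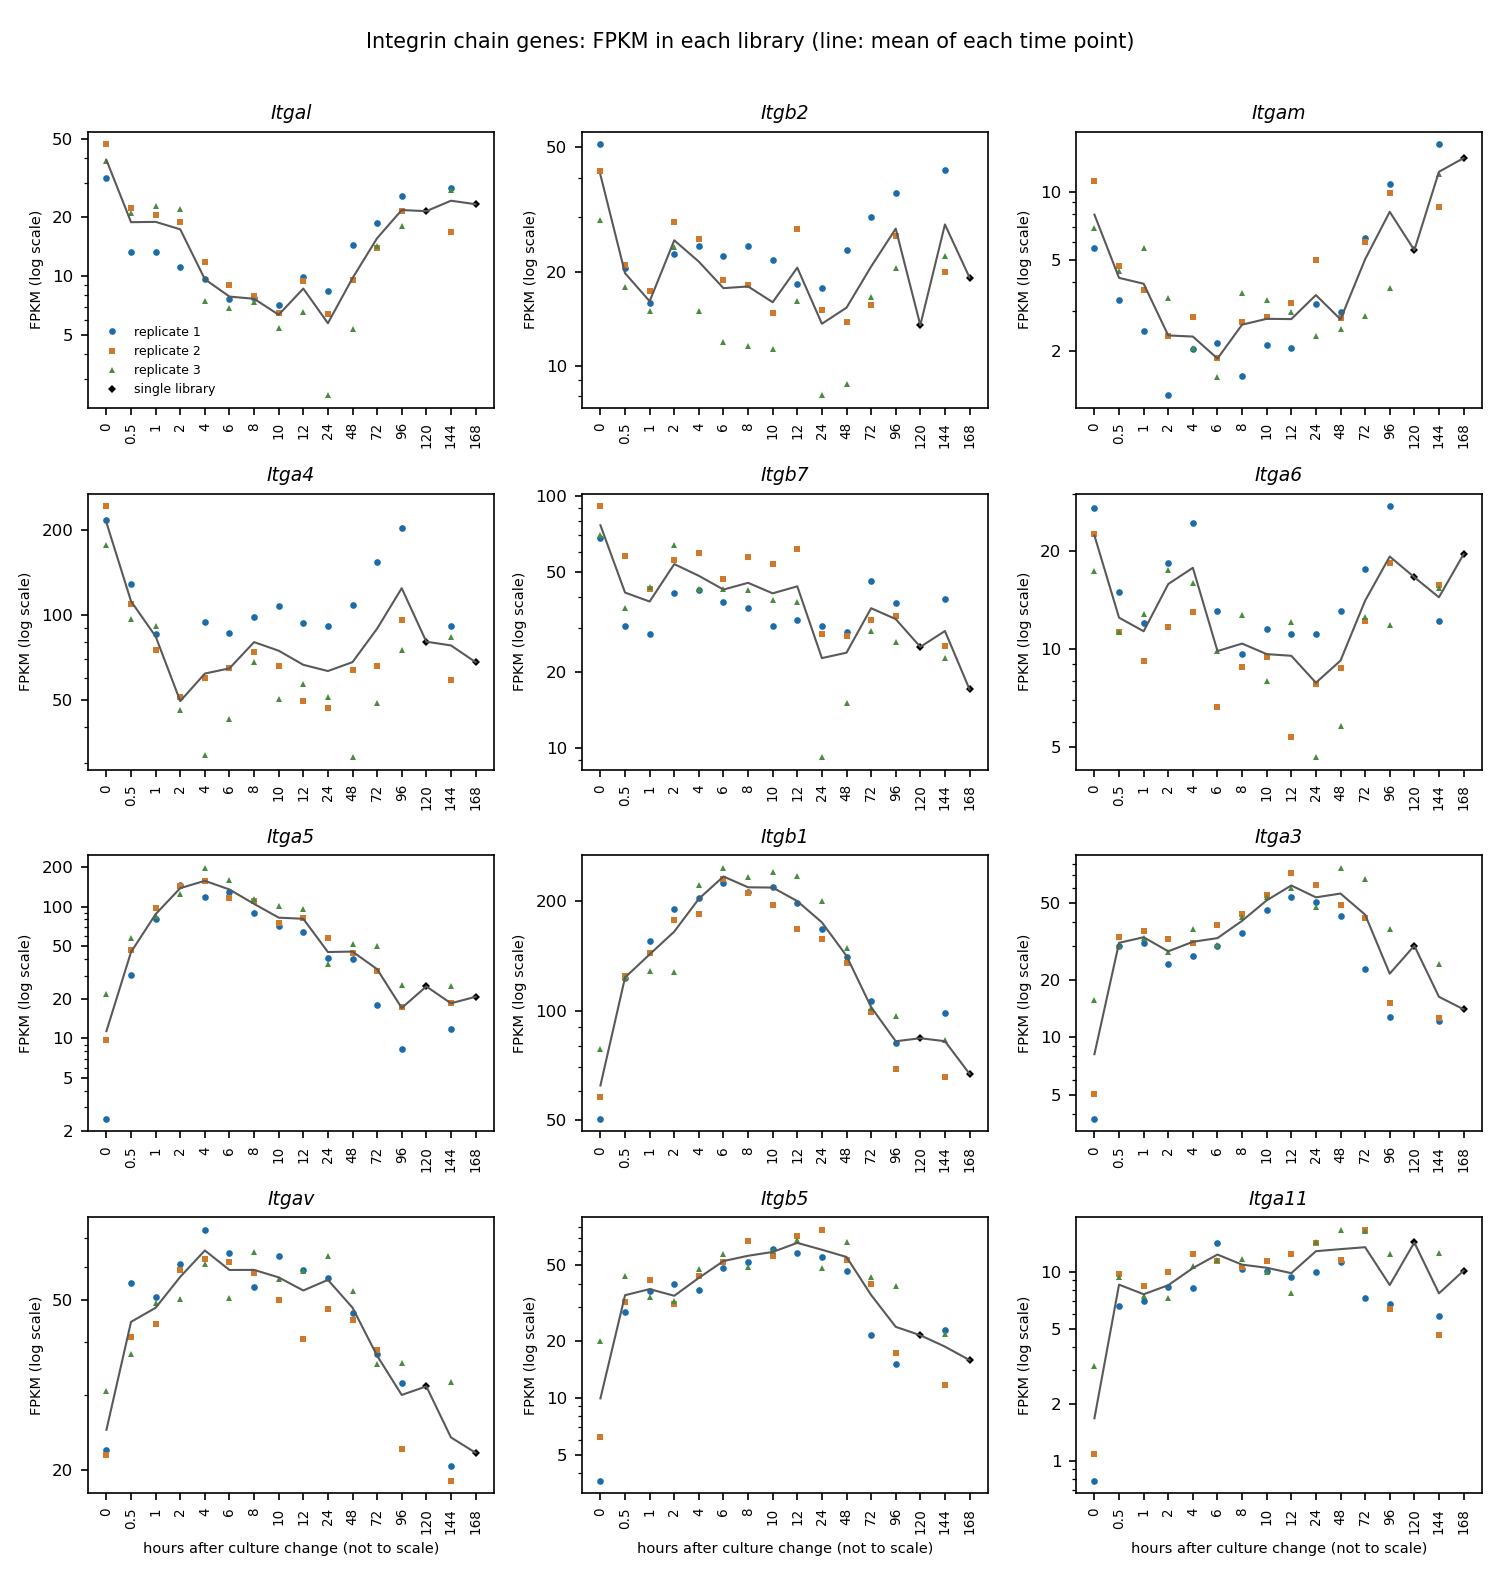
FPKM on a log axis of 12 integrin genes in each library, by hour after the culture change (horizontal axis, not to scale), with a symbol for each replicate number, a line at the mean of each time and diamonds for the single libraries. Itga4 falls from 218, 243 and 178 FPKM at 0 h to 51.3, 51.3 and 46.2 FPKM at 2 h, and Itga5 goes from 2.46, 9.71 and 21.9 FPKM at 0 h to 118, 157 and 197 FPKM at 4 h.

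Among the stromal integrins, Itga3, Itgav, Itgb5, Itga11 and Itgb6 were called higher at 6 h and at 24 h. Itga3, the α3 chain that binds laminins, held 3.77, 5.06 and 15.7 FPKM at 0 h, 29.8, 38.5 and 30.2 FPKM at 6 h and 53.5, 71.5 and 60.1 FPKM at 12 h, and 12.1, 12.6 and 24 FPKM at 144 h. Its change was 2.1 (SE 0.35, adjusted p = 1.5e-05) at 6 h and 2.79 (SE 0.35, adjusted p = 1.5e-07) at 24 h on the deposited scale. Scaled to the stromal genes it was -0.79 (SE 0.21, adjusted p = 0.00075) and 0.19 (SE 0.21, adjusted p = 0.40), with the other sign at 6 h. Itgb5, the β5 partner of αv that binds vitronectin, held 3.64, 6.21 and 19.9 FPKM at 0 h, 48.4, 52.2 and 57.6 FPKM at 6 h and 58.2, 71.3 and 68 FPKM at 12 h, and 22.7, 11.6 and 21.6 FPKM at 144 h. Its change was 2.6 (SE 0.35, adjusted p = 4.5e-07) at 6 h and 2.77 (SE 0.35, adjusted p = 1.4e-07) at 24 h. It kept near the stromal genes, with -0.32 (SE 0.21, adjusted p = 0.14) on their scale at 6 h. In both genes the 6 h and 12 h libraries all lie above 0 h, whose replicate 3 is the highest.

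Itgav, the αv chain, was the highest of the stromal integrins at 0 h, with 22.3, 21.7 and 30.7 FPKM. It held 64.5, 61.6 and 50.7 FPKM at 6 h, 56.4, 47.6 and 63.5 FPKM at 24 h and 20.5, 18.9 and 32.2 FPKM at 144 h. The 6 h and 24 h libraries lie above those of 0 h, and those of 144 h overlap them. The change was 1.22 (SE 0.18, adjusted p = 3.1e-06) at 6 h and 1.14 (SE 0.18, adjusted p = 6.6e-06) at 24 h on the deposited scale. On the stromal scale it had the other sign, -1.83 (SE 0.29, adjusted p = 6.3e-07) and -1.6 (SE 0.29, adjusted p = 6.4e-06). The summed stromal genes of the 0 h libraries were 595, 871 and 2103 FPKM, a wider spread than that of Itgav. Which cells held the Itgav transcripts of 0 h was not tested. Itga11, the α11 collagen receptor chain of fibroblasts, held 0.782, 1.09 and 3.15 FPKM at 0 h, 14.1, 11.4 and 11.5 FPKM at 6 h, 9.98, 14.2 and 14.3 FPKM at 24 h, and 5.83, 4.6 and 12.6 FPKM at 144 h. All 6 h, 24 h and 144 h libraries lie above those of 0 h. It changed by 2.41 (SE 0.30, adjusted p = 1.5e-07) at 6 h and 2.46 (SE 0.30, adjusted p = 1.1e-07) at 24 h. On the stromal scale it changed by 0.03 (SE 0.22, adjusted p = 0.91) at 6 h.

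The remaining stromal integrins were low. Itgb6, the β6 partner of αv, held 0.0602, 0.184 and 0.224 FPKM at 0 h, 1.37, 0.844 and 1.14 FPKM at 6 h and 0.697, 0.893 and 1.52 FPKM at 24 h. It changed by 0.87 (SE 0.27, adjusted p = 0.0094) and 0.80 (SE 0.27, adjusted p = 0.015). The 6 h change had the other sign on the stromal scale, -0.05 (SE 0.28, adjusted p = 0.88). Its 24 h call was lost without 0 h replicate 1 (0.74, adjusted p = 0.054) or 24 h replicate 3 (0.64, adjusted p = 0.091), and with the run of library codes as a block (0.63, adjusted p = 0.066). Itga1, the α1 collagen receptor chain, held 1.18, 2.16 and 1.25 FPKM at 0 h, 6.29, 6.5 and 2.41 FPKM at 1 h and 1.81, 3.15 and 1.49 FPKM at 6 h. It was called higher at 0.5, 1 and 2 h, with 1.2 (SE 0.38, adjusted p = 0.016) at 1 h, but not at 6 h, 0.30 (SE 0.38, adjusted p = 0.57), or 24 h, 0.07 (SE 0.38, adjusted p = 0.92). The 1 h call was lost without 0 h replicate 1, 1 h replicate 1 or 1 h replicate 2 (log2 change between 1.0 and 1.57). It had the other sign on the stromal scale, -0.78 (SE 0.42, adjusted p = 0.088). Itgb4, the β4 chain of epithelial anchors, was called higher at 0.5, 1, 2, 4, 12, 48 and 72 h, with log2 changes from 0.86 at 12 h to 1.43 (SE 0.35, adjusted p = 0.0015) at 48 h. It was not called at 6 h, 0.71 (SE 0.35, adjusted p = 0.11), 24 h, 0.60 (SE 0.35, adjusted p = 0.17), or in the F test over all later times (adjusted p = 0.10). At 72 h 25.4% of all genes were called. Itga7 (0 to 3.32 FPKM) was not called at 6, 24 or 144 h. Itga8, a chain of smooth muscle and mesenchyme, held 1.05, 0.395 and 0.47 FPKM at 0 h and 0.144, 0.816 and 0.271 FPKM at 6 h. It was not called, with -0.22 (SE 0.28, adjusted p = 0.58) at 6 h and -0.31 (SE 0.28, adjusted p = 0.40) at 24 h.

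Of the laminins, Lama2, Lama4, Lamb1, Lamb2 and Lamc1 were called higher at 6 h on the deposited scale, and 0 of them on the stromal scale. Lamc1, the γ1 chain common to most laminins, had the highest mean of the laminin genes at 0, 6 and 144 h, though not at all times. It held 8.8, 12.5 and 15.3 FPKM at 0 h, 31, 38.6 and 30.1 FPKM at 6 h and 15.5, 20 and 24.2 FPKM at 144 h. Lamb1, the β1 chain, held 1.92, 1.98 and 5.99 FPKM at 0 h, 22.4, 24.1 and 30.8 FPKM at 6 h and 7.52, 4.27 and 6.04 FPKM at 144 h. Lamb2, the β2 chain, held 2.61, 5.02 and 7.85 FPKM at 0 h, 20.1, 23.5 and 20.3 FPKM at 6 h and 9.83, 7.62 and 17.3 FPKM at 144 h. In all 3 the 6 h libraries lie above those of 0 h. At 6 h Lamb1 changed by 2.75 (SE 0.29, adjusted p = 5.9e-09), Lamb2 by 1.95 (SE 0.31, adjusted p = 6.7e-06) and Lamc1 by 1.4 (SE 0.20, adjusted p = 1.1e-06). On the stromal scale Lamb1 was not called, with 0.06 (SE 0.21, adjusted p = 0.81). Lamb2 and Lamc1 had the other sign there, with -0.88 (SE 0.22, adjusted p = 0.00051) and -1.59 (SE 0.24, adjusted p = 2.5e-07).

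Of the α chains, Lama2, known from muscle and stromal matrix, held 0.461, 1.24 and 2.31 FPKM at 0 h and 6.19, 8.14 and 5.01 FPKM at 6 h. Lama4, known from vessel and stromal matrix, held 0.167, 0.126 and 0.28 FPKM and 2.34, 0.909 and 0.997 FPKM. They changed by 1.73 (SE 0.33, adjusted p = 0.00011) and 0.97 (SE 0.27, adjusted p = 0.0046) on the deposited scale. On the stromal scale both had the other sign and were not called, with -0.48 (SE 0.26, adjusted p = 0.082) and -0.11 (SE 0.28, adjusted p = 0.71). The Lama4 call was lost without 6 h replicate 1 (0.72, adjusted p = 0.057), and it was not called at 24 h, 0.52 (SE 0.27, adjusted p = 0.12). Lama5, the α chain of epithelial and vessel basement membranes, held 0.697, 0.723 and 0.556 FPKM at 0 h and 1.08, 0.746 and 0.405 FPKM at 6 h. It was not called, 0.06 (SE 0.21, adjusted p = 0.87). Lamb3, a chain of an epithelial laminin, stayed at 0.441 to 3.05 FPKM over all 44 libraries.

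**Figure D5:**
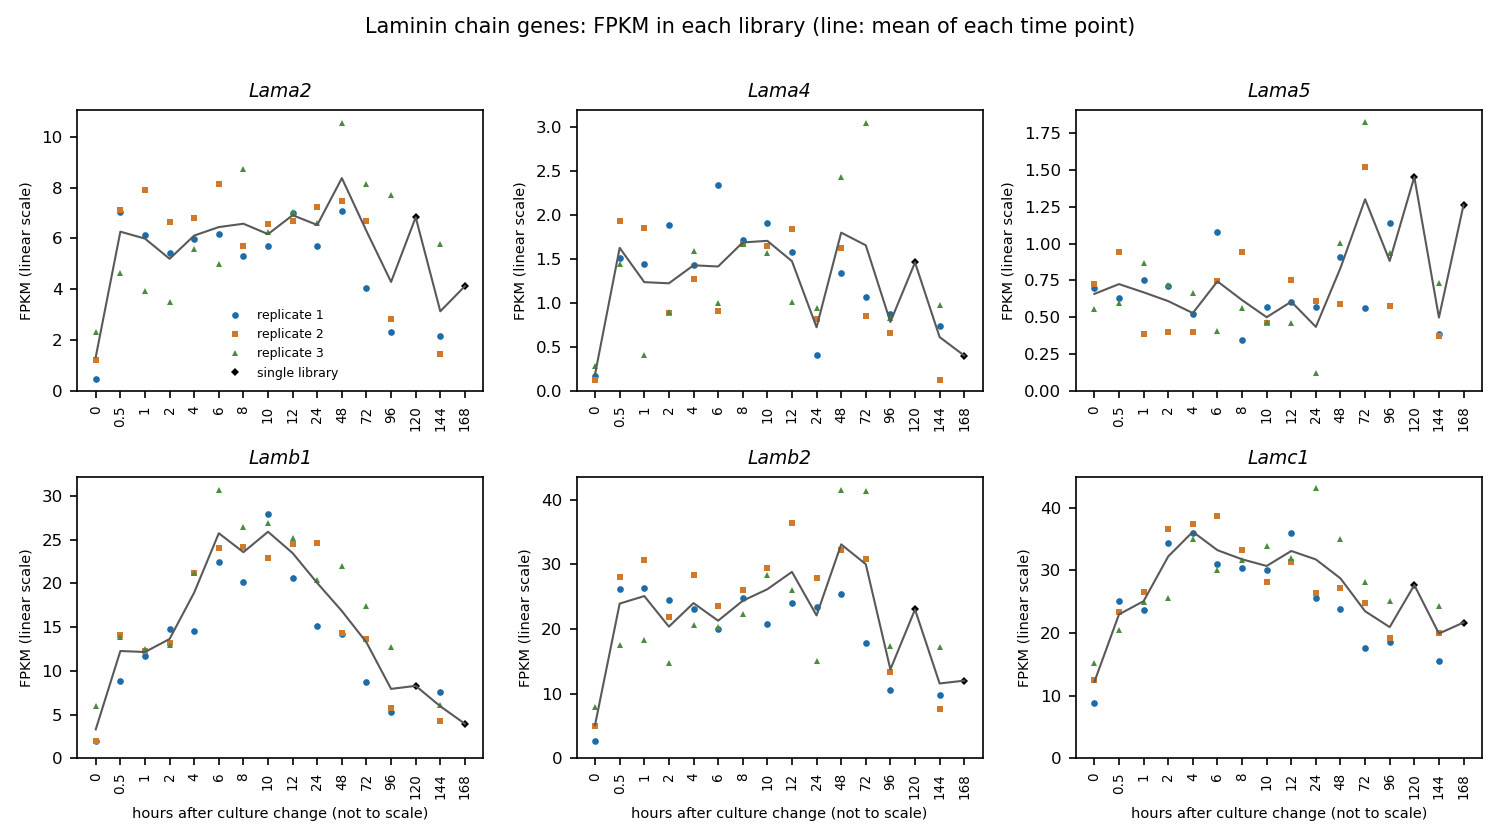
FPKM (linear axis from 0) of 6 laminin genes in each library by hour after the culture change (horizontal axis, not to scale), with a symbol for each replicate number, a line at the mean and diamonds for the single libraries. Lamb1 goes from 1.92, 1.98 and 5.99 FPKM at 0 h to 22.4, 24.1 and 30.8 FPKM at 6 h, while Lama5 holds 0.697, 0.723 and 0.556 FPKM at 0 h and 1.08, 0.746 and 0.405 FPKM at 6 h.

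By 144 h fewer of the members were called against 0 h. Against 0 h, 8.89% of all genes were called, 5.64% higher and 3.24% lower, after 10.3% at 96 h. The members called lower were Itga4, -1.45 (SE 0.41, adjusted p = 0.023), Itgb7, -1.39 (SE 0.33, adjusted p = 0.0059), and Itgb3, -0.98 (SE 0.25, adjusted p = 0.0100). Those called higher were Itga11, 1.69 (SE 0.30, adjusted p = 0.00034), Itgb5, 1.09 (SE 0.35, adjusted p = 0.043), Lamb2, 1.05 (SE 0.31, adjusted p = 0.027), and Lamc1, 0.67 (SE 0.20, adjusted p = 0.026). Itgal, -0.68 (SE 0.30, adjusted p = 0.17), Itgb2, -0.55 (SE 0.34, adjusted p = 0.37), and Itgam, 0.57 (SE 0.32, adjusted p = 0.31), were not called. Nor were Itga5, 0.98 (SE 0.41, adjusted p = 0.15), and Itga3, 1.07 (SE 0.35, adjusted p = 0.050). The libraries of 0 h and 144 h share no run of library codes. Run and time can be told apart only through a model with the run as a block, which takes a run to shift all its times alike. Only the run of replicate 3 from 8 h on links times up to 24 h with those from 48 h, by 1 library per replicated time. In this model 4 stromal integrins and 4 laminins were called, where 11.6% of all genes were.

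Of these calls, Itgb7 and Itga11 were kept without any single library. Itga4 was lost without 0 h replicate 1 or 2 or 144 h replicate 2 or 3 (log2 change between -1.57 and -1.26), and Itgb3 without 0 h replicate 1 or 144 h replicate 2 (-1.17 and -0.74). Itgb5 was lost without 0 h replicate 1 or 2 or 144 h replicate 1 or 3 (0.62 and 1.71). Lamb2 was lost without 0 h replicate 1 or 2 or 144 h replicate 3 (0.71 and 1.36), and Lamc1 without 0 h replicate 1 or 2 or 144 h replicate 2 or 3 (0.48 and 0.84). No laminin was called without 0 h replicate 1, 0 h replicate 2 or 144 h replicate 3. With quantile normalization the calls of Itgb5 (adjusted p = 0.056) and Lamc1 (adjusted p = 0.0503) were lost. That of Itgb5 was also lost with no filter on low values (adjusted p = 0.059).

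On the blood-cell scale, where 2.58% of all genes were called at 144 h, both chains of α4β7 were still lower. Itga4 changed by -1.12 (SE 0.32, adjusted p = 0.047) and Itgb7 by -1.05 (SE 0.25, adjusted p = 0.014), while Itgal was not called, -0.36 (SE 0.23, adjusted p = 0.51). On the stromal scale, where 43.9% were called, Itga11 was higher, 1.31 (SE 0.22, adjusted p = 0.00011), and Lamc1 had the other sign, -0.18 (SE 0.24, adjusted p = 0.52). Itga11 stood at 1.35 ± 0.13 FPKM per 1000 summed FPKM of stromal genes at 0 h and 3.8 ± 1.5 at 144 h. It stood at 4.64 and 6.44 in the single libraries of 120 h and 168 h.

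From 48 h to 144 h, times that share their runs of library codes, blood-cell chains were called higher and stromal chains and laminins lower on the deposited scale, the last pair with the other sign when scaled to the stromal genes. Of the blood-cell integrins 3 were higher and 0 lower, of the stromal integrins 0 higher and 4 lower. Of the shared ones 0 were higher and 2 lower, and of the laminins 0 were higher and 5 lower. In this comparison 28.7% of all genes were called, 12% higher and 16.7% lower. Of the marker genes, 20 of 22 blood-cell genes were higher and 22 of 23 tested stromal genes lower. Itgal changed by 1.28 (SE 0.30, adjusted p = 0.0019), Itgam by 1.78 (SE 0.32, adjusted p = 0.00011) and Itgax by 0.99 (SE 0.35, adjusted p = 0.034). Itgb2 was not called, 0.87 (SE 0.34, adjusted p = 0.053), nor were Itga4, 0.34 (SE 0.41, adjusted p = 0.58), and Itgb7, 0.29 (SE 0.33, adjusted p = 0.55). Whether the change of αL, αM or αX differed from that of the α4β7 chains was not tested.

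Scaled to the blood-cell genes, where 76.8% of all genes were called, nearly all lower, Itga4 changed by -1.17 (SE 0.32, adjusted p = 0.0015) and Itgb7 by -1.18 (SE 0.25, adjusted p = 0.00013). Both lie near the median change of all genes on that scale, -1.25. Itgal, -0.14 (SE 0.23, adjusted p = 0.59), and Itgam, 0.47 (SE 0.31, adjusted p = 0.16), were not called. The Itgax call on the deposited scale was lost without 48 h replicate 3, 144 h replicate 1 or 144 h replicate 2 (log2 change between 0.55 and 1.27). It was also lost with a pseudocount of 0.1 (adjusted p = 0.117).

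Among the matrix receptors Itga3 changed by -1.75 (SE 0.35, adjusted p = 0.00038), Itgb5 by -1.57 (SE 0.35, adjusted p = 0.00099) and Itgav by -1.02 (SE 0.18, adjusted p = 0.00011). Itga11 changed by -0.80 (SE 0.30, adjusted p = 0.046), Itga5 by -1.31 (SE 0.41, adjusted p = 0.017) and Itgb1 by -0.79 (SE 0.16, adjusted p = 0.00034). Among the laminins, Lamb2 changed by -1.49 (SE 0.31, adjusted p = 0.00052), Lamb1 by -1.36 (SE 0.29, adjusted p = 0.00063) and Lama2 by -1.3 (SE 0.33, adjusted p = 0.0036). Lama4 changed by -0.82 (SE 0.27, adjusted p = 0.022) and Lamc1 by -0.51 (SE 0.20, adjusted p = 0.048). All 11 had the other sign scaled to the stromal genes, where 77.5% of all genes were called, nearly all higher. The median change of all genes on that scale was 1.62. The call of Itga11 was lost without any library but 144 h replicate 3 (log2 change between -1.17 and -0.53), and that of Itga5 without 48 h replicate 3 or 144 h replicate 1. Lama4 was lost without 48 h replicate 3 or 144 h replicate 2, and Lamc1 without 48 h replicate 2 or 3 or 144 h replicate 1 or 2 (-0.66 and -0.35). The calls of Itga11 and Lamc1 were also lost with a pseudocount of 0.1, no filter, quantile normalization and median-ratio scaling. Their adjusted p in these settings lay from 0.057 to 0.066 and from 0.051 to 0.086.

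The genes that work with integrins were counted on the deposited scale, on which the marker genes move too. Of the markers tested, 21 of 22 blood-cell genes were lower and 23 of 23 stromal genes higher at 6 h, and 22 and 23 at 24 h. The part of this shift in the counts below was not tested. Of 30 adaptor and signalling genes (29 tested), 16 were higher and 8 lower at 6 h, where 19% of all genes were higher and 19.2% lower. At 24 h 15 were higher and 9 lower, where 20.8% and 22.5% of all genes were. At 144 h 3 were higher and 1 lower against 0 h, beside 5.64% and 3.24% of all genes, and 5 higher and 14 lower against 48 h, beside 12% and 16.7%. The actin linkers Actn1 (3.07) and Vcl (2.92) and kindlin-2, Fermt2 (2.73), had the greatest log2 rises at 6 h, and Parvg (-2.48), Rasgrp2 (-2.18) and the blood-cell kindlin-3, Fermt3 (-1.79), the greatest falls. The kindlins, which switch integrins to their binding state, crossed: Fermt3 had means of 69 FPKM at 0 h, 19.3 FPKM at 6 h and 44.9 FPKM at 144 h, and Fermt2 8.53, 57.4 and 10.8 FPKM. The parvins, which tie integrins to actin, did likewise, with Parvg at 147, 25.6 and 87.2 FPKM and Parva at 7.86, 44.5 and 14.4 FPKM.

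Of 12 ligand genes other than laminins (10 tested), 6 were higher and 3 lower at 6 h and likewise at 24 h, where 38.1% and 43.3% of all genes were called. At 144 h 4 were higher and 0 lower against 0 h (8.89% of all genes called), and 2 higher and 6 lower against 48 h (28.7% called). The summed stromal genes moved from a mean of 1189.6 to 8887 FPKM between 0 h and 6 h. Fn1, fibronectin, the ligand of α5β1 and α4β1, had means of 93.2 FPKM at 0 h, 816 FPKM at 6 h and 369 FPKM at 144 h, and its log2 change at 6 h was 3.3. Vcam1, the stromal ligand of α4β1, had means of 2.5, 7.37 and 5.52 FPKM (1.27 at 6 h), and Icam1, a ligand of LFA-1, 18.9, 9.41 and 12.6 FPKM (-1.08 at 6 h). Tnc (3.75) and Thbs1 (3.21), matrix proteins of stroma, were also higher at 6 h, and Icam2 (-1.81) and Cdh1 (-0.86), the ligand of αEβ7, lower.

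Of 10 other basement membrane genes (9 tested), 7 were higher and 0 lower at 6 h and at 24 h, as were all 23 tested stromal markers and 19% and 20.8% of all genes. At 144 h 1 was higher against 0 h, where 5.64% of all genes and 7 of 23 stromal markers were. Against 48 h 7 were lower, where 16.7% of all genes and 22 of 23 stromal markers were. The collagen IV chains Col4a1 (3.14) and Col4a2 (3.0) and perlecan, Hspg2 (2.19), had the greatest log2 rises at 6 h. Col4a1 had means of 8.44 FPKM at 0 h, 71.8 FPKM at 6 h and 13.8 FPKM at 144 h, and Nid1, the nidogen that joins laminin to collagen IV, 0.963, 3.67 and 1.33 FPKM (1.23 at 6 h).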

How the data were processed

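Poly(A) RNA-seq values of 44 libraries at 16 times were used as deposited: FPKM per gene, made by the authors with TopHat2 2.1.0, Cufflinks 2.1.1 and the mm9 build, per the submitters' processing notes. What the word corrected in the name of the deposited table refers to, and which strand setting was used, are not given in the sources used here. Depth per library is unknown.

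A linear model of log2(FPKM + 1) was made in R 4.3.3 by limma 3.58.1, with 1 mean for each of the 14 replicated times and an intensity trend in the variance. A gene was tested if 3 or more of 42 libraries held 1 FPKM or above (13907 genes), and p-values were adjusted by Benjamini-Hochberg over them. The 2 single libraries were not fitted. The script was tested on simulated data.

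The members are all genes of the symbol rule. Named in full are a list of 21 chains and any other member called at 6, 24 or 144 h. The laminin counts include 1 gene whose values are not reported here. Of the adaptor, ligand and basement membrane lists, 9 genes and the strongest calls are named. The members and lists were chosen with earlier results of these data known. The results at 1, 2, 4 and 12 h and the chain ratios were chosen after seeing the data. Alternatives were a pseudocount of 0.1, no filter, quantile and median-ratio scaling, scaling to the marker sums, a replicate block, a block for runs of library codes, and each library left out. Promoters are RefSeq sequences on GRCm38.p6, and protein sequences were not used here.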

Additional observations from a re-analysis of the deposited data

How the results depend on the processing

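Signs changed only with scaling to a marker sum, for 11 gene results with the blood-cell genes and 30 with the stromal genes. On the blood-cell scale the log2 changes that turned were Itga6 0.37, Itgb2 0.38 and Itgb7 0.75 at 6 h, Itga4 0.30, Itga6 0.49, Itgam 0.75, Itgb2 0.46, Itgb3 0.98 and Itgb7 0.18 at 24 h, Itgb7 0.85 at 12 h and Itgal -0.14 at 144 h against 48 h. On the stromal scale they were Itga3 -0.79, Itgav -1.83, Itgb1 -1.17, Itgb5 -0.32, Itgb6 -0.048, Lama2 -0.48, Lama4 -0.11, Lamb2 -0.88 and Lamc1 -1.59 at 6 h, Itga5 -0.33, Itgav -1.60, Itgb1 -1.28, Lama2 -0.20, Lamb1 -0.0012, Lamb2 -0.57 and Lamc1 -1.38 at 24 h, Itga1 -0.78 at 1 h, Itgb3 -2.15 at 4 h, Lamc1 -0.18 at 144 h, and Itga11 0.93, Itga3 0.077, Itga5 0.52, Itgav 0.83, Itgb1 1.09, Itgb5 0.26, Lama2 0.23, Lama4 0.047, Lamb1 0.36, Lamb2 0.31 and Lamc1 1.32 at 144 h against 48 h. These scales hold a cell type's genes level by construction, and the filter applied to their values left 14096 and 14377 genes tested in place of 13907, among them 8 and 9 blood-cell and 10 and 10 stromal integrins in place of 8 and 9. Counts of called blood-cell integrins became 3 (blood-cell scale) and 9 (stromal scale) at 6 h, and on the stromal scale 9 at 24 h, with 4 at 144 h and 8 at 144 h against 48 h. On the blood-cell scale stromal integrins called became 8 at 6 h and 8 at 24 h, with 0 at 144 h and 8 at 144 h against 48 h, and 5 on the stromal scale at 144 h against 0 h. Counts of laminins became 0 at 144 h (blood-cell scale) and 2 at 144 h against 48 h (stromal scale). At 144 h against 0 h, 1 stromal integrin was called without a filter and 1 with quantile normalization, and 1 laminin with quantile normalization and 4 with a pseudocount of 0.1; the cause was not tested. With the run of library codes as a block, 4 stromal integrins and 4 laminins were called at 144 h against 0 h, where 11.6% of all genes were. Without a filter, with quantile normalization and with a pseudocount of 0.1 the shares of all genes were 6.19%, 8.67% and 9.27%.

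Leaving out single libraries gave 20 to 23 members called by the F test; at 6 h 3 to 4 blood-cell integrins, 5 to 6 stromal integrins and 5 to 6 laminins; at 24 h 4 to 5, 4 to 5 and 4 to 5; at 144 h 1 to 2, 1 to 3 and 0 to 3; and at 144 h against 48 h 2 to 4, 3 to 6 and 3 to 6. The replicate numbers do not pair the libraries by the labels, and the deviations of same-numbered libraries correlated with r from 0.0079 to 0.14, in each of the 12 pairs above those with other numbers. The replicate block gave 23 members in the F test, 6 blood-cell integrins at 24 h, 3 stromal integrins and 3 laminins at 144 h, and 4 blood-cell and 6 stromal integrins at 144 h against 48 h, and it lost no gene's call. The calls it added were Itgae at 24 h, Itga3, Itga5 and Lamb1 at 144 h against 0 h, and Itga1, Itgb2 and Itgb4 at 144 h against 48 h. With this block 46% of all genes were called at 24 h, 12% at 144 h and 32.3% at 144 h against 48 h. The shares of all genes called with a library left out, or in the F test with the block, are not given. Counts of members from those fits therefore cannot be read as results about the members. The FPKM keep no depth, so the precision of low genes such as Itgb6 and Lama4 cannot be given from counting.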
